A study of Mus musculus with 6 samples.

Results

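Snap91, Klhdc8a, Lamp5 and Siglecg were followed here across 6 whole-kidney RNA libraries of mouse embryos at embryonic day 16. These 4 genes, of 13965 rows in the table, were chosen by their lower level in mutant than in control kidneys. The difference itself is therefore described without a test, and tests are given for other genes only. The mutant group held 3 kidney libraries, with both alleles of the cluster floxed (miR-17~92 flx/flx) and the Six2-TGC transgene, and the control group held 3 libraries labelled WT, miR-17~92 flx/+. Each of 3 litters supplied 1 mutant and 1 control library. Six2-TGC is a transgene in which Six2 regulatory sequence drives a Cre recombinase in nephron progenitors, so the floxed microRNA cluster is removed there and in the cells that descend from them. The control label names no Six2-TGC transgene, so an effect of the transgene cannot be told apart from one of the deletion. RNA came from whole kidneys, in which fewer progenitors and less RNA per progenitor cannot be told apart. The labels do not say whether kidneys were pooled.

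Nephron progenitors form the cap mesenchyme, a cell layer around each tip of the branching ureteric bud, where they either renew or leave to build the epithelium of the nephron. The transcription factor Six2 keeps them in the renewing state, and the transcriptional co-regulator Cited1 marks the least committed of them. The miR-17~92 cluster encodes microRNAs that pair through their seed, bases 2 to 8, with sites mostly in the 3′ untranslated regions of messenger RNAs. None of the 4 genes is a textbook progenitor gene. Snap91 encodes AP180, a clathrin assembly protein of synaptic vesicle recycling. Klhdc8a encodes a protein of kelch repeats, which fold into a propeller. Lamp5, also called BAD-LAMP, is a neuronal member of the lysosome-associated membrane protein family, and Siglecg is an inhibitory receptor for sialic acids, known from B cells.

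The mature microRNAs of the cluster are shown because they are what the deletion removes. Their sequences are from RefSeq (GRCm38.p6, chromosome 14, plus strand), 5′ to 3′, with the seed in capitals.
mmu-miR-17-5p: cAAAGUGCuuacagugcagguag
mmu-miR-20a-5p: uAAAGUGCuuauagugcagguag
mmu-miR-18a-5p: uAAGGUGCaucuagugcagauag
mmu-miR-19a-3p: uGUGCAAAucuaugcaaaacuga
mmu-miR-19b-3p: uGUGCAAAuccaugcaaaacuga
mmu-miR-92a-3p: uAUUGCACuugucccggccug
The 6 microRNAs carry 4 different seeds, since miR-17-5p and miR-20a-5p share one and miR-19a-3p and miR-19b-3p share another. Matches to these seeds were searched as whole 7-base sites, on the sense strand, in the 3′ untranslated region of 1 transcript per gene (GENCODE M21, GRCm38). Klhdc8a held 1 site for miR-18a-5p, at base 13 of a 2565-base region. Lamp5 held 1 site for miR-17-5p and miR-20a-5p, at base 63 of a 726-base region. Both sites are given with their flanks, the match in capitals.
Klhdc8a site, chromosome 1: tggccggagcaGCACCTTtgcctggtcag
Lamp5 site, chromosome 2: gaacgacaatgGCACTTTttcacctgtat
No site was found in the 1411 bases of Snap91 or the 281 bases of Siglecg. Among 12659 genes searched in the same way, 33.6% held at least 1 site for any of the 4 seeds, 14.5% one for miR-17-5p and miR-20a-5p, and 9.5% one for miR-18a-5p. A match is a description of letters and not a measured site. Klhdc8a and Lamp5 hold a match and Snap91 and Siglecg hold none. All 4 were chosen for their lower level in mutant kidneys, so nothing about the sites is read from that direction.

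The promoters of the 4 genes are shown because all 4 were lower in mutant kidneys and because the windows differ in base composition. Each covers the bases just before and after a RefSeq start site (GRCm38.p6), written in the direction of the gene. Lamp5 and Siglecg each have 2 such windows, and the one with the lower coordinate is printed. Capitals mark matches to 1 of 5 motifs searched on both strands.
Snap91 promoter, chr9:86880659-86880958, minus strand: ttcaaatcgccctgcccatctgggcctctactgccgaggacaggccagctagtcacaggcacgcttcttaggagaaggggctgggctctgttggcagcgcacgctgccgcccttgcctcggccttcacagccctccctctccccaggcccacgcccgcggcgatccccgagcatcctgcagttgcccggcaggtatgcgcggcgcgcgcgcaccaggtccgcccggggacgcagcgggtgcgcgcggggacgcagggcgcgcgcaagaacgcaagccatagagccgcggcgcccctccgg
Klhdc8a promoter, chr1:132298376-132298675, plus strand: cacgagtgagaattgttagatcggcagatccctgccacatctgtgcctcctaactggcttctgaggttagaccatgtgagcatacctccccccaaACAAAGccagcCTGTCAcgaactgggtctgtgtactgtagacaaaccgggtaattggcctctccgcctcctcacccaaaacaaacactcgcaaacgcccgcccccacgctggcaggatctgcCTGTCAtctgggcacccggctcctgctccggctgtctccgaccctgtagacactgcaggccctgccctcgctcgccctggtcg
Lamp5 promoter, chr2:136052089-136052388, plus strand: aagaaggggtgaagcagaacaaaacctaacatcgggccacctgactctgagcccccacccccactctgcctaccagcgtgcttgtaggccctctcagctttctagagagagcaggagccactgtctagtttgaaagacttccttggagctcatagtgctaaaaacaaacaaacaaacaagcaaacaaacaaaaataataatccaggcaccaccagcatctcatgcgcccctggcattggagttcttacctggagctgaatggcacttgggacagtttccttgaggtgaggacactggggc
Siglecg promoter, chr7:43407989-43408288, plus strand: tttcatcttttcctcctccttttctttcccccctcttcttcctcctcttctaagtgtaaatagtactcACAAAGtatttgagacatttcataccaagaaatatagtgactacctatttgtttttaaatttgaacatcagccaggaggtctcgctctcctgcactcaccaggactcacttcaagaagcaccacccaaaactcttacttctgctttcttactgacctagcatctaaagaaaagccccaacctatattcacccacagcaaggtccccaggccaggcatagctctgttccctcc
The Snap91 window was 72.0% G and C with 35 CpG pairs, Klhdc8a 59.7% with 15, Lamp5 50.7% with 3 and Siglecg 43.7% with 1, against a median of 52.7% G and C over 32851 promoters. The motif ACAAAG, a Sox core, began at position -155 from the Klhdc8a start and at -182 from the Siglecg start, and 18.7% of all promoters hold it. TGACAG, a Meis and Tgif core, was found as its reverse complement at positions -144 and -33 of Klhdc8a, and 19.2% of all promoters hold it. The other motifs were TAATTA, the homeodomain core, TGATAC, for Six2 and its relatives, and the E-box CACGTG, present in 5.3%, 5.5% and 7.2% of promoters. No window of the 4 genes held any of these, and the printed windows of Snap91 and Lamp5 held none of the 5.

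The libraries held 46672915 to 54913325 reads in the mutant group and 43804667 to 49473404 in the control group, so that 1 CPM, a read count scaled to the library total, stood for 43.8 to 54.9 reads. Markers of cap mesenchyme, ureteric bud, podocytes, proximal tubule and stroma were detected in all 6 libraries. The row of Mir17hg, the host transcript of the cluster, stood at 53.6, 39.8 and 44.6 CPM in mutant kidneys and at 34.1, 36.4 and 23.0 CPM in control kidneys (adjusted p = 0.222, limma, and 0.0292 with litter as a block). That row is joined with another gene identifier and does not measure the mature microRNAs, so it checks nothing of the deletion. All 4 genes passed the filter of at least 1 CPM in at least 3 libraries, along with 13766 rows in all. Siglecg reached 1 CPM in no mutant library, and Klhdc8a and Lamp5 in 1 each. Those that passed only through the control libraries had to differ.

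Snap91 was the most abundant of the 4 per length, at 2.62 CPM per kilobase of transcript in mutant and 7.70 in control kidneys. It is a single row on chromosome 9 (86765923 to 86880654, minus strand, GRCm38). Its level was 9.56, 12.5 and 12.1 CPM in mutant kidneys of litters 1, 2 and 3, against 36.1, 29.4 and 34.6 CPM in their control littermates. Every mutant value lay below every control value, and litter 1 held both the lowest mutant and the highest control. Such a gap is favoured by the choice of the gene on this difference, and its share over all rows is not given here. The means were 11.4 ± 1.58 CPM in mutant and 33.4 ± 3.51 CPM in control kidneys (SD, n = 3 each). On the log2(CPM + 0.5) scale the mutant mean was lower, at -1.52 (SE 0.13). Within litters the level was 3.77-fold lower in mutants (95% interval 3.40 to 4.19) in litter 1, 2.36-fold (2.15 to 2.59) in litter 2 and 2.86-fold (2.60 to 3.15) in litter 3. These exact binomial intervals cover counting error only, not the spread between kidneys.

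Klhdc8a was measured at 1.08, 0.856 and 0.964 CPM in mutant kidneys, against 3.20, 4.18 and 4.65 CPM in control kidneys. The mutant values rest on 52, 47 and 45 reads and the control values on 140, 184 and 230 reads. The groups did not overlap, which the choice of the gene favours, and litter 1 held both the highest mutant and the lowest control value. Means were 0.966 ± 0.110 CPM in mutant and 4.01 ± 0.742 CPM in control kidneys (SD, n = 3 each), with a log2 difference of -1.61 (SE 0.17). Mutants were 2.97-fold lower (2.15 to 4.16) in litter 1, 4.88-fold (3.53 to 6.88) in litter 2 and 4.82-fold (3.49 to 6.79) in litter 3. The gene lies on chromosome 1 (132298626 to 132307357, plus strand).

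Lamp5, on chromosome 2 (136052239 to 136069917, plus strand), stood at 0.725, 1.17 and 0.943 CPM in mutant kidneys, against 3.52, 4.25 and 3.52 CPM in control kidneys. Litter 2 was the highest of its group on both sides. No mutant library reached any control library, which the choice of the gene favours. The values rest on 35, 64 and 44 reads in mutants and on 154, 187 and 174 reads in controls. The means were 0.944 ± 0.220 CPM in mutant and 3.76 ± 0.423 CPM in control kidneys (SD, n = 3 each), a log2 difference of -1.57 (SE 0.17). The within-litter difference was 4.85-fold (3.34 to 7.22), 3.65-fold (2.73 to 4.92) and 3.73-fold (2.67 to 5.32) lower in mutants, and the 3 intervals overlap.

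Siglecg differed most. Its level was 0.166, 0.164 and 0.0429 CPM in mutant kidneys, from 8, 9 and 2 reads, against 3.52, 4.93 and 3.05 CPM in control kidneys, from 154, 217 and 151 reads. The mutant libraries were near the floor of detection, with litter 3 the lowest in both groups. Means were 0.124 ± 0.0704 CPM in mutant and 3.83 ± 0.979 CPM in control kidneys (SD, n = 3 each), and the log2 difference was -2.78 (SE 0.20). Because so few reads remain, that log2 value depends on the pseudocount, and the ratio of reads is the better description. Summed over litters it was 30.0-fold lower in mutants (19.0 to 50.2), with 21.2-fold (10.5 to 50.0), 30.1-fold (15.6 to 66.7) and 71.2-fold (19.4 to 594) in litters 1, 2 and 3. The litter 3 ratio rests on 2 mutant reads. Siglecg lies on chromosome 7 (43408204 to 43418358, plus strand).

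**Figure D1:**
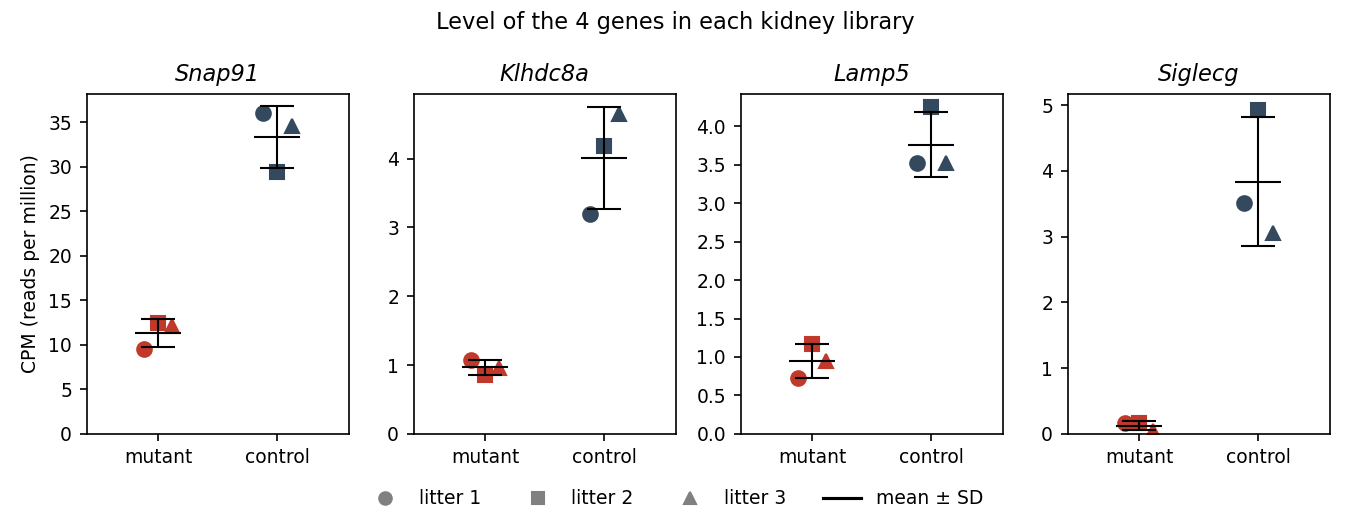
CPM of the 4 genes in each library, mutant left and control right, with a symbol per litter and a black bar for the mean ± SD (n = 3 each). Each panel has its own linear axis that starts at 0. In all 4 panels the mutant points lie below the control points, in genes chosen for their lower mutant level.

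Per length, the genes ranked in the same order in mutant as in control kidneys except for the last pair. The level per kilobase was 0.483 CPM in mutant and 1.92 CPM in control kidneys for Lamp5, 0.226 and 0.939 CPM for Klhdc8a, and 0.0483 and 1.49 CPM for Siglecg. Siglecg was thus above Klhdc8a in control kidneys and below it in mutant kidneys. Lamp5 and Siglecg were close in control kidneys, with SDs of 0.216 and 0.381 CPM per kilobase. Among the 13766 rows tested, Snap91 stood at percentile 20.9 in mutant and 42.4 in control kidneys, and Siglecg at percentile 0.0 in mutant and 14.4 in control kidneys. Rows low in both groups were filtered out, so a gene that passed only through control libraries had to rank low in mutants. Of 13766 rows ordered by log2 difference, Siglecg was the row in place 2 from the lowest, Klhdc8a in place 9, Lamp5 in place 10 and Snap91 in place 12. Over these rows 77 were called at an adjusted p below 0.05, which is 0.559%, and 27, or 0.196%, were called lower in mutants. With litter as a block 1574 rows, or 11.4%, were called and 3.51% were called lower. The 4 genes were chosen on this contrast, so nothing is read from their place in it.

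Known cap mesenchyme genes went in both directions, and at the pseudocount of 0.5 none had a difference as low as that of Siglecg. Of 50 listed, 46 had a tested row, 7 fell, 1 rose and 38 did not pass the test (limma with Benjamini-Hochberg adjustment). The list was chosen with earlier results of these libraries known and is not independent evidence of a direction. Its median log2 difference was -0.17, against 0.01 over all rows tested. By genotype alone 0.196% of all rows fell. With litter as a block 19 of the list fell, against 3.51% of all rows, and 4 rose. Without litter 3 the count called was 1, and without litter 2 it was 5.

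The homeobox gene Meox2 had the lowest value of the list, at 1.86, 1.42 and 2.01 CPM in mutant kidneys and 12.8, 12.6 and 10.6 CPM in control kidneys (log2 difference -2.47, SE 0.15, adjusted p = 8.18e-05). Cited1 stood at 9.32, 12.9 and 10.4 CPM in mutant and at 37.4, 53.1 and 51.9 CPM in control kidneys (-2.07, SE 0.16, adjusted p = 0.000224). Traf1, an adaptor of TNF receptor signalling, fell by 1.61 on the log2 scale (adjusted p = 0.000211), and Meox1, the homeobox relative of Meox2, fell by 1.54 (adjusted p = 0.000211). Elavl4, an RNA-binding protein better known from neurons, fell by 1.30 (adjusted p = 0.0302), a call that was lost without control replicate 2 (adjusted p = 0.123), mutant replicate 2 (0.0999) or mutant replicate 3 (0.189). Capn6, a calpain that lacks protease activity, fell by 1.07 (adjusted p = 0.000172), and Phf19, a Polycomb-associated protein, fell by 0.96 (adjusted p = 0.00506). The 6 genes other than Elavl4 were called with any single library left out. Fgf20, a progenitor growth factor, had a log2 difference of 0.78 (adjusted p = 0.0465), which missed the threshold with any 1 library left out and under both other scalings.

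Siglecg lay below all 46 cap genes in this order. Klhdc8a and Lamp5 stood between Traf1 and Meox1, and Snap91 between Meox1 and Elavl4. Neighbours from Traf1 to Snap91 differ by less than their SEs, which run from 0.12 to 0.17. The order also depends on the pseudocount. At 0.1 Klhdc8a (-1.94) and Lamp5 (-1.90) lay below Traf1 (-1.68) and Meox1 (-1.61). At 1 Klhdc8a (-1.34) and Lamp5 (-1.29) lay above Traf1 (-1.53) and Meox1 (-1.45), and Siglecg (-2.09) lay above Meox2 (-2.24).

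**Figure D2:**
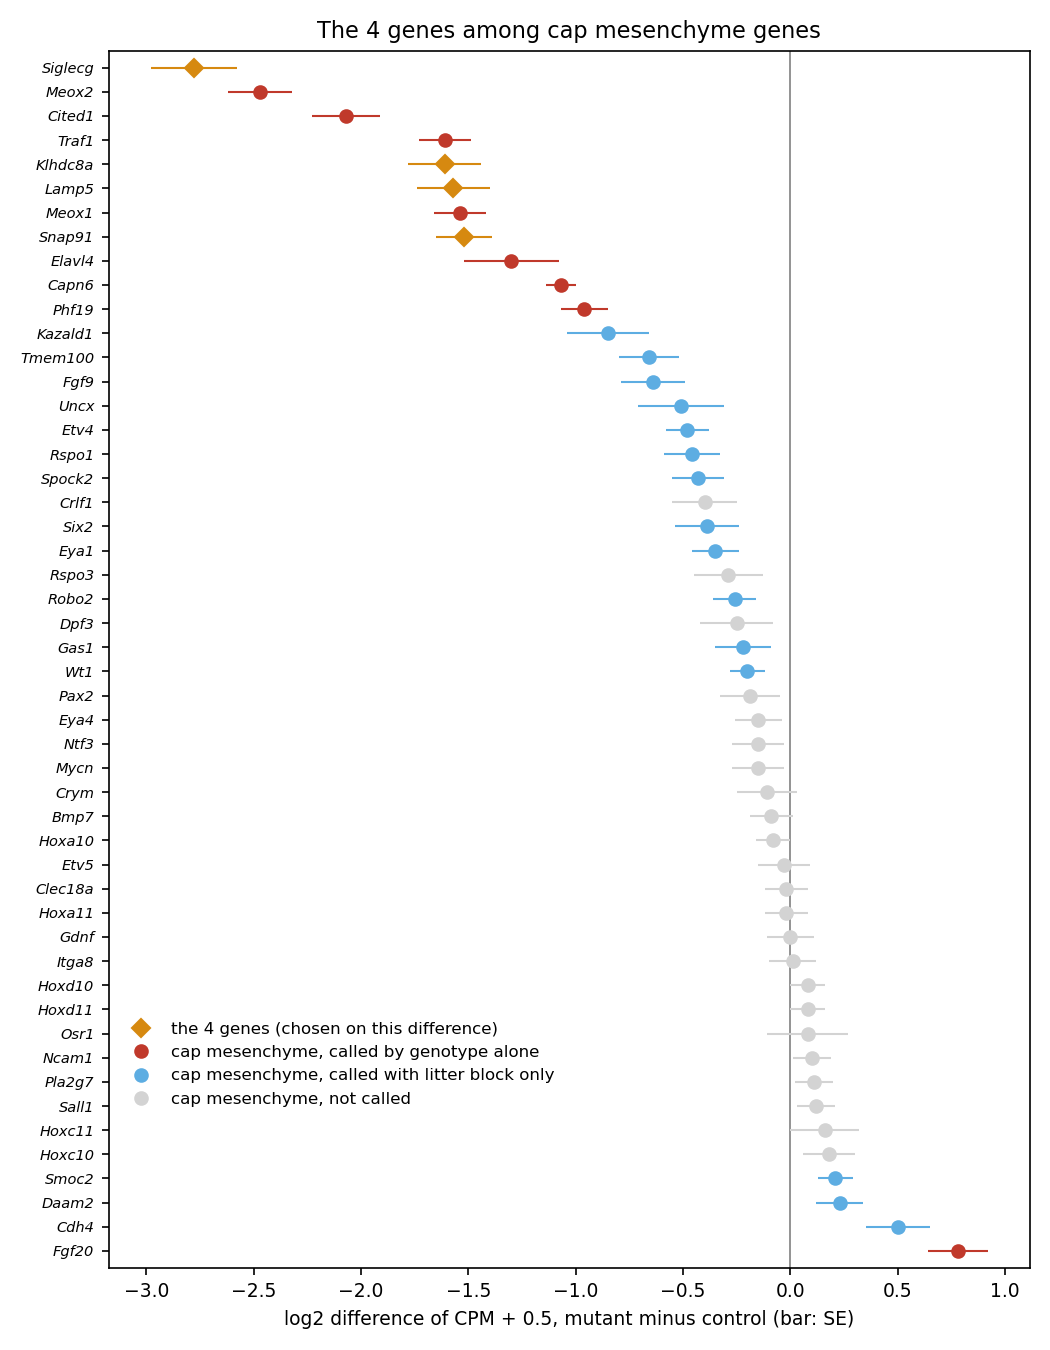
Log2 difference of CPM + 0.5, mutant minus control, with its SE, for the 46 cap mesenchyme genes and the 4 genes, lowest at the top. The diamonds sit at the low end beside Meox2, Cited1, Traf1 and Meox1, and most other cap genes lie near 0.

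Several defining progenitor genes had smaller differences than the 4 genes. Six2 was at 31.1, 43.9 and 40.8 CPM in mutant kidneys, against 41.5, 56.1 and 54.2 CPM in control kidneys. The 2 groups overlapped, but within litters the mutant was lower in 3 of 3 (log2 difference -0.39, adjusted p = 0.354 with limma, and 0.00626 with litter as a block). Eya1, the phosphatase partner of Six2, had -0.35 (adjusted p = 0.227, and 0.00794 with the block) and Wt1, a transcription factor of progenitors and podocytes, had -0.20 (0.377, and 0.0216 with the block). Osr1 (0.08), Sall1 (0.12), Pax2 (-0.19), Gdnf (0.00) and Itga8 (0.01) were called in neither fit. Genes lower with the block only were Uncx, Spock2, Rspo1, Fgf9, Robo2, Tmem100, Etv4, Gas1 and Kazald1, along with Six2, Eya1 and Wt1, with values from -0.85 to -0.20. Daam2, Smoc2 and the joined row of Cdh4 were higher with the block only, at 0.23, 0.21 and 0.50.

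**Figure D3:**
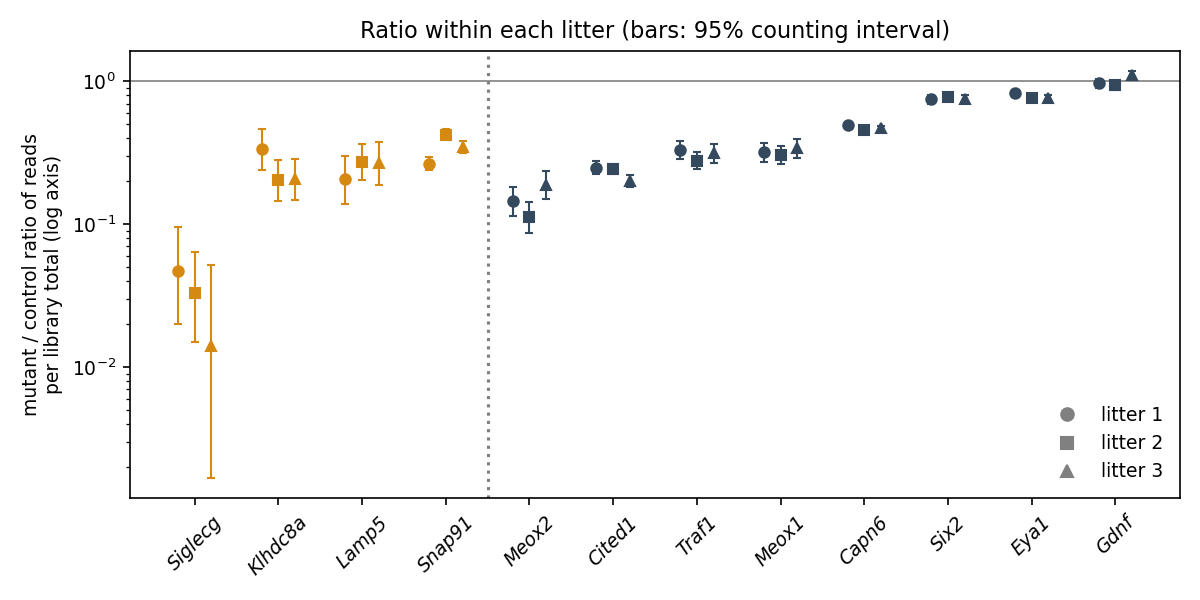
Ratio of mutant to control reads per library total within each litter, on a log axis, with 95% counting intervals. The 4 genes are left of the dotted line and 8 cap mesenchyme genes right of it, from Meox2 to Gdnf, whose ratios lie near 1.

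Set against Six2 in the same library, per length, each of the 4 genes was lower in the mutant in 3 of 3 litters. The 4 genes were chosen for lower mutant levels and Six2 differed less (log2 difference -0.39), so lower ratios follow from the choice. The ratios to the other cap genes likewise restate the differences given above and are not separate evidence. Snap91 was 15.0%, 13.9% and 14.5% of Six2 in mutant kidneys, against 42.5%, 25.6% and 31.2% in control kidneys. Siglecg was 0.440%, 0.308% and 0.0866% of Six2 in mutant kidneys, against 6.99%, 7.24% and 4.65% in control kidneys. The mean was 1.29% in mutant and 3.93% in control kidneys for Klhdc8a, and 2.64% and 8.14% for Lamp5. Against Cited1 the picture differed. Snap91 was higher relative to Cited1 in all 3 mutants, with means of 26.5% in mutant and 18.3% in control kidneys, and Klhdc8a (2.34% and 2.16%) and Lamp5 (4.81% and 4.49%) were lower in 1 of 3 litters. Siglecg remained lower relative to Cited1 in 3 of 3 litters, at 0.489% in mutant and 3.48% in control kidneys. Relative to Meox1, Snap91 was 121% in mutant and 116% in control kidneys and lower in 1 of 3 litters. Klhdc8a was 10.5% of Meox1 in mutant and 14.0% in control kidneys and lower in 2 of 3 litters. Lamp5 was 22.3% of Meox1 in mutant and 28.6% in control kidneys, and Siglecg 2.25% in mutant and 22.1% in control kidneys, each lower in 3 of 3 litters. Relative to Capn6 all 4 genes were lower in 3 of 3 litters, with means for Snap91 of 6.91% in mutant and 9.58% in control kidneys.

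The rows most like each gene were named by the root mean square difference between centred log2 values over the 6 libraries, among 13695 candidates. For Snap91 they were Meox1 (0.169), Lamp5 (0.177), Cdhr1 (0.202), Traf1 (0.219) and 2610028E06Rik (0.243). For Klhdc8a they were Traf1 (0.158), Meox1 (0.173), Cdhr1 (0.224), Lamp5 (0.241) and 2610028E06Rik (0.250). For Lamp5 they were Meox1 (0.114), Traf1 (0.129), Snap91 (0.177), Cdhr1 (0.197) and Gm14226 (0.230). Siglecg stood farther from any row, with Meox2 at 0.286, Cited1 at 0.436, the joined row of Galnt15 at 0.564, Traf1 at 0.596 and Lamp5 at 0.637. Meox1 and Traf1 were among the 5 nearest rows of Snap91, of Klhdc8a and of Lamp5. Values centred over all 6 libraries keep the difference between mutant and control, on which the 4 genes were chosen. Rows with a like difference therefore come out near, and this likeness is not separate evidence. The distances of Klhdc8a, Lamp5 and Siglecg also depend on the pseudocount, as their differences do.

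For each of the 4 genes a list of family members and genes of related function, called relatives here, was tested. No tested gene of these lists was called by genotype alone. In the list for Snap91, of clathrin assembly and coat genes, 0 of 36 were called (3 at an unadjusted p below 0.05, limma), and with litter as a block 3 rose, Ap2b1, Sgip1 and Synj1. Picalm, the broadly expressed relative of Snap91, stood at 45.5 CPM per kilobase in mutant and 44.1 in control kidneys (adjusted p = 0.913), and Cltc, the clathrin heavy chain, had a log2 difference of 0.12. In the kelch list 0 of 13 were called (2 at an unadjusted p below 0.05), with 3 higher and Klhdc2 lower under the block. The list also counts Krtcap2, which is not a kelch gene. Klhdc8b, the nearest relative of Klhdc8a by name, stood at 5.30 CPM per kilobase in mutant and 5.63 in control kidneys (adjusted p = 0.834).

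In the list of lysosome membrane genes 0 of 19 were called (0 at an unadjusted p below 0.05, and 0 with the block). Lamp1 was at 143 CPM per kilobase in mutant and 141 in control kidneys, and Lamp2 at 76.0 in mutant and 70.9 in control kidneys, both far above Lamp5. Of 20 genes listed for Siglecg, 11 were tested and 0 were called (2 at an unadjusted p below 0.05), while with the block St6gal1, a sialyltransferase, rose and Hmgb1 fell. The other 9, which are the Siglec family members of the list and include Cd22 and Cd33, were not analysed here. The 11 tested genes include no Siglec, so no family member was compared with Siglecg. Cd24a, whose product is a Siglecg ligand, stood at 177 CPM per kilobase in mutant and 193 in control kidneys (adjusted p = 0.573). Ptpn6, a phosphatase that acts downstream of inhibitory receptors, stood at 5.79 in mutant and 6.04 in control kidneys (adjusted p = 0.900). Across the 4 lists 79 rows were tested, 0 were called and 7 had an unadjusted p below 0.05, against 11.3% of all rows at that level, and 9 were called with the block, against the 11.4% given above.

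Among markers of the cells in which these genes are best known, 1 of 52 was called by genotype alone, against 0.559% of all rows, and 6 with the block, a share near the 11.4% of all rows. At an unadjusted p below 0.05 there were 12 of 52, against 11.3% of all rows. Of 24 B cell genes 6 had a tested row and 0 were called (1 at an unadjusted p below 0.05, and 0 with the block). Cd79b, a chain of the B cell receptor, was at 2.71, 4.10 and 4.22 CPM in mutant and at 3.84, 5.61 and 3.92 CPM in control kidneys. Cd79a and Ms4a1 were not analysed here. The summed B cell list was 93.9 to 104 CPM in mutant and 90.0 to 105 CPM in control kidneys, most of it from the joined rows of Rag1 and Ebf1. Of 21 leukocyte genes 0 were called (3 at an unadjusted p below 0.05), their sum was 210 to 262 CPM in mutant and 192 to 206 CPM in control kidneys, and Mrc1, a macrophage receptor, rose with the block.

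Neuronal markers are the relevant list for Snap91 and Lamp5. Of 17 tested 1 fell, Elavl4, which also stands in the cap list, and 16 did not pass. At an unadjusted p below 0.05 (limma) there were 5 of 17, against 11.3% of all rows. With the block Nefl, a neurofilament (log2 difference -0.78), and Dcx, a microtubule protein of young neurons (-0.73), fell as well. That made 3 of 17 lower, against 3.51% of all rows. The summed list was 226 to 247 CPM in mutant and 232 to 260 CPM in control kidneys. Most of it came from Vamp2, Dnm1 and Uchl1, so the sum says little of the scarcer markers. Syt1, a synaptic vesicle protein, was at 1.57, 1.00 and 1.26 CPM in mutant and at 0.867, 1.39 and 0.849 CPM in control kidneys, while Tubb3 and Snap25 were not analysed here. Of 8 Schwann cell genes 0 were called (3 at an unadjusted p below 0.05), with Pmp22 higher and Ngfr (-0.65) lower under the block. Their sum was 253 to 264 CPM in mutant and 248 to 252 CPM in control kidneys, most of it from Pmp22 and Mal. The part of neurons or leukocytes in the levels of Snap91, Lamp5 and Siglecg was not tested.

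**Figure D4:**
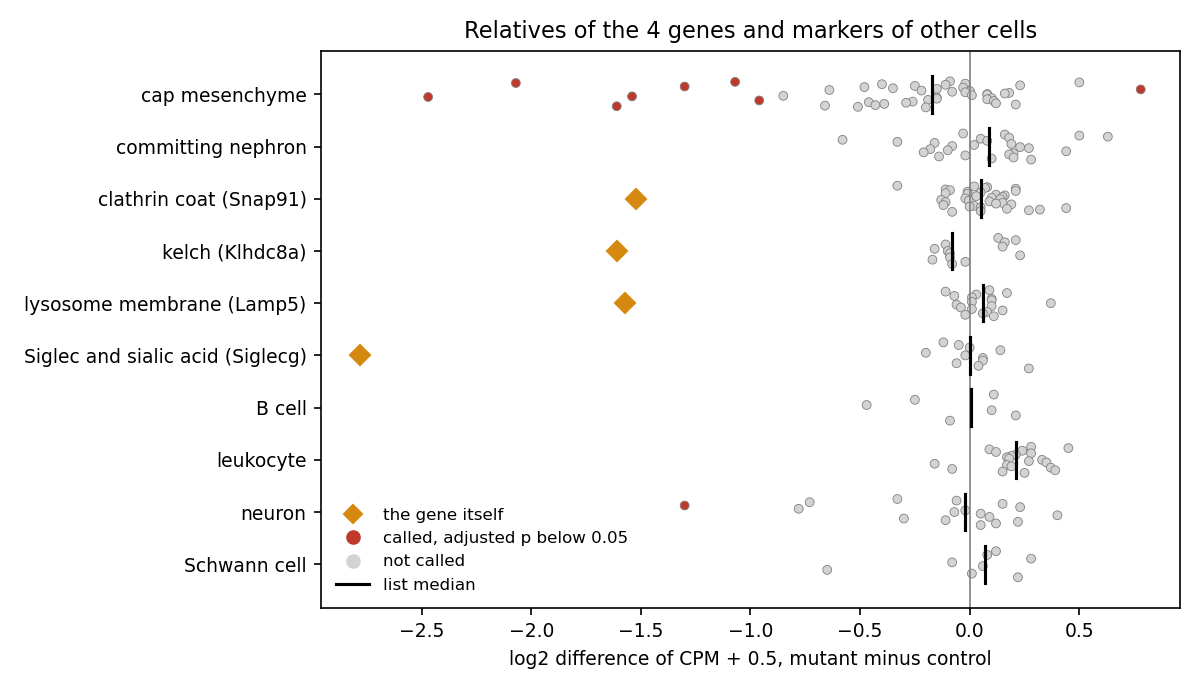
Log2 difference of each tested gene, mutant minus control, by list, with the list median as a black line and called genes in red. The diamonds mark Snap91, Klhdc8a, Lamp5 and Siglecg, left of every gene in the list named for each, at -1.52, -1.61, -1.57 and -2.78. These genes were chosen for their lower mutant level, which favours this place.

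Genes beside the 4 genes on their chromosomes were not called by genotype alone. Of 24 neighbours, 3 on each side of each gene, 0 were called, and their log2 differences ran from -0.45 to 0.41. At an unadjusted p below 0.05 (limma) there were 3, a share near the 11.3% of all rows, and 2 were called with litter as a block, against 11.4% of all rows. The lowest was Cyb5r4, an oxidoreductase 141 kilobases from Snap91, at -0.45 (adjusted p = 0.0667, and 0.00208 with litter as a block). On its other side Prss35, a protease-like gene 7.48 kilobases away, had 0.39 (adjusted p = 0.346). Nuak2, a kinase 8.77 kilobases from Klhdc8a, averaged 2.97 CPM in both groups, and Cdk18 had 0.16. Beside Lamp5, the kinase Pak7 at 11.2 kilobases had 0.34 (adjusted p = 0.536) and the phospholipase Plcb4 at 37.6 kilobases had -0.14. Beside Siglecg, the electron transfer gene Etfb at 25.7 kilobases had -0.12 and Zfp715 at 94.9 kilobases had 0.05. With the block Plcb1, also near Lamp5, was called higher. No gene with a tested row overlaps any of the 4 genes.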

How the data were processed

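RNA of whole kidneys was sequenced from 6 TruSeq libraries (3 mutant, 3 control), per the labels. The deposited table gives CPM, read counts that the authors scaled to the library total. The submitters' processing notes name TopHat2 2.0.9, Picard, SAMtools and build NCBIM37. The counting program and strand setting are not given in the sources used here. Every value was a whole number of reads within 0.001 reads, and reads were taken from it. Of 13965 rows, 526 join more than 1 gene identifier.

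Symbols, lengths and positions came from GENCODE M21 (GRCm38), since the table holds no coordinates, and 13695 rows matched. limma 3.58.1 in R 4.3.3, with its trend option, compared log2(CPM + 0.5) by genotype, keeping a row only if 3 or more libraries reached 1 CPM. P-values were two-sided, Benjamini-Hochberg adjusted over 13766 rows and called below 0.05. The script was tested on simulated data.

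Litter pairs the libraries, per the labels. Deviations from the group means correlated across genes at 0.619, 0.446 and 0.312 within litters, and at -0.514 to 0.172 between them. The litter block is an alternative, with pseudocounts of 0.1 and 1, no filter, 2 scalings, removal of length and GC trends, and libraries left out.

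The members and all gene lists were chosen with earlier results of these data known. Named genes were the 4 members, cap genes called in either fit plus 8 set markers, the called and most abundant genes of other lists, the nearest neighbour on each side, and the 5 most alike rows. Some genes of the lists were not analysed here. Replicates are libraries from different litters within each group, and the main fit does not use the pairing by litter. The p-values set the difference between groups against the spread between libraries, with variance estimates that limma shares across genes.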

Additional observations from a re-analysis of the deposited data

How the results depend on the processing

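The log2 difference of Snap91 ran from -1.67 to -1.34 over 17 alternatives, including -1.60 to -1.40 with 1 library left out. A pseudocount of 0.1 gave -1.94 for Klhdc8a, -1.90 for Lamp5 and -4.16 for Siglecg, and a pseudocount of 1 gave -1.34, -1.29 and -2.09, since these genes lie near the pseudocount in mutant kidneys. With libraries or litters left out, Klhdc8a ran from -1.75 to -1.51, Lamp5 from -1.68 to -1.45 and Siglecg from -2.83 to -2.68. Siglecg did not pass the filter without a control library, nor Klhdc8a and Lamp5 without 1 litter each, so no value is given there. No direction was reversed.

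Litter as a replicate block, where the labels pair the libraries, raised the calls from 77 to 1574 over all genes, to 23 in the cap mesenchyme list (8 without it), 8 in the committing nephron list (0), 34 in the kidney lineage lists (5), 9 among relatives of the 4 genes (0), 6 among markers of other cells (1) and 2 among neighbours (0). Removing length and GC trends gave 236, 14, 0, 11, 0, 3 and 1 calls in the same order, and with the replicate block 821, 22, 5, 27, 6, 5 and 1. Trimmed-mean scaling gave 3 calls in the lineage lists. With 1 library or litter left out, calls ran from 1 to 100 over all genes, 1 to 7 in the cap list, 0 to 1 in the committing nephron list, 0 to 8 in the lineage lists and 0 to 3 among other cell markers, and stayed at 0 among relatives and neighbours. The count of 1 over all genes came without litter 3. The causes were not tested.

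The count tests planned on recovered reads were not run, although the values were whole numbers of reads. Reads limit Siglecg most, with 2 to 9 per mutant library.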

Other observations

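Committing nephrons derive from the same progenitors, and their list was also chosen with earlier results of these libraries known. Of 26 genes listed for them and tested, 0 were called by genotype alone (6 at an unadjusted p below 0.05, limma, against 11.3% of all rows), and the median log2 difference was 0.09. With litter as a block 7 rose and 1 fell, against 11.4% of all rows called. Among those that rose, the nephron inducer Wnt4 averaged 64.3 ± 7.72 CPM in mutant and 52.9 ± 5.71 CPM in control kidneys (SD, n = 3 each; adjusted p = 0.0143 with limma and the block, 0.413 by genotype alone). The Notch ligand Jag1 averaged 165 ± 4.43 CPM in mutant and 136 ± 10.4 CPM in control kidneys (adjusted p = 0.0221 with limma and the block, 0.227 by genotype alone). Fgf8, a growth factor of the renal vesicle, fell, with 6.77 ± 1.78 CPM in mutant and 10.2 ± 0.997 CPM in control kidneys (adjusted p = 0.0199 with limma and the block, 0.243 by genotype alone). Ccnd1, the most abundant gene of the list, had a log2 difference of 0.16.

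Of 100 rows in the lists for podocytes, proximal tubule, ureteric bud, stroma and endothelium, 5 rose and 0 fell, against 0.559% of all rows called. These lists too were chosen with earlier results of these libraries known and are not independent evidence of a direction. With litter as a block 32 rose and 2 fell, against 11.4% of all rows called, and 36 had an unadjusted p below 0.05 (limma), against 11.3% of all rows. Pck1, a gluconeogenic enzyme of the proximal tubule, averaged 34.6 ± 6.76 CPM in mutant and 11.9 ± 1.68 CPM in control kidneys (SD, n = 3 each; adjusted p = 0.00257 with limma). Fat4, an atypical cadherin of the stroma, averaged 136 ± 8.52 CPM in mutant and 78.9 ± 5.51 CPM in control kidneys (adjusted p = 0.00456 with limma). The other genes called were Ntn1 (log2 difference 0.68) and Pdgfra (0.51) of the stroma and Npnt (0.41) of the podocyte list. List medians were 0.09 for podocytes, 0.19 for proximal tubule and for ureteric bud, 0.25 for stroma and 0.13 for endothelium, against 0.01 over all rows.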
